A study of Chlorocebus sabaeus with 3 samples.

Results

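The genes that encode secreted antimicrobial proteins (DEFB1, LTF, LCN2, BPI, CAMP and LYZ, 6 in all) were followed in cell-free RNA of vervet monkey amniotic fluid. They were taken by gene name, and all 6 were found among the 33994 genes listed in each of 3 libraries. Each library came from amniotic fluid supernatant of 1 Chlorocebus sabaeus pregnancy. By their status labels, the first ended in a stillborn fetus labelled M for sex, the second in spontaneous abortion labelled NA for sex, and the third with an alive fetus labelled F. The labels name no treatment, gestational age, maternal age, genotype or interval between sampling and outcome. With 1 library per outcome, each difference below is one between libraries and has no replicate check, so no p-value is given. All 3 libraries were amplified cDNA made from 100 ng of RNA, for which the labels name no molecular identifiers.

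Amniotic fluid bathes the fetal skin, mouth, airway, gut and amnion and takes up fetal urine, and these epithelia secrete proteins that kill or starve microbes. Beta defensins are small cationic peptides that disrupt microbial membranes, and DEFB1 is the member that epithelia make without an inflammatory stimulus. Lactotransferrin (LTF) withholds iron, lipocalin 2 (LCN2) captures the siderophores with which bacteria collect iron, and lysozyme (LYZ) cleaves the peptidoglycan of bacterial walls. The cathelicidin CAMP is cut to a membrane-active peptide, and the bactericidal/permeability-increasing protein BPI binds endotoxin. LTF, LCN2, CAMP, LYZ and BPI are also cargo of neutrophil granules, and macrophages secrete LYZ.

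The libraries held 17749954 assigned reads in stillborn, 29926352 in spontaneous abortion and 20220899 in alive fluid. These totals and the reads per gene were recovered from the deposited RPKM values (reads scaled to gene length and sequencing depth). Which length was used for a gene, exons alone or the whole gene, is not given. Levels of different genes are therefore compared as RPKM and depend on that length. A number of reads is a lower bound, because a factor common to a gene's reads in all 3 libraries cannot be seen. Reads below are these recovered numbers, and the minimum of reads was set on them. Ratios between libraries are of reads scaled by TMM factors (trimmed mean of M-values), with exact 95% Clopper-Pearson intervals that cover counting error only. Where recovered reads fall short of the true reads, the interval is wider than the counting error. Libraries of a pair were said to differ in a gene, which is then called higher or lower by the fold rule, when the ratio reached 2-fold, the interval excluded 1 and 30 or more recovered reads stood in the higher library. The fluid showed epithelial RNA in each library, with all 10 simple epithelial markers above 0. Of 6 measured erythroid genes, 3 were at 0 in stillborn, 3 in spontaneous abortion and 4 in alive fluid. Among them HBB (listed as LOC103247901), the beta chain of hemoglobin, had 2 reads in stillborn, 38 in spontaneous abortion and 3 in alive fluid. It was 10.4-fold lower in stillborn than in spontaneous abortion (2.68 to 88.7) and 8.80-fold higher in spontaneous abortion than in alive fluid (2.79 to 44.5).

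By RPKM, the 6 transcripts spanned from among the highest genes in the fluid to barely seen. DEFB1 stood at RPKM 689 in stillborn, 565 in spontaneous abortion and 537 in alive fluid. LTF was next, at RPKM 33.3, 36.4 and 105 in the same order of libraries. LYZ followed at RPKM 12 in stillborn, 4.18 in spontaneous abortion and 4.42 in alive fluid. The order DEFB1, LTF, LYZ held in each of the 3 libraries. LCN2 was at RPKM 0.937 in stillborn, 0.139 in spontaneous abortion and 0.411 in alive fluid. CAMP was at RPKM 0.866 in stillborn, 0.357 in spontaneous abortion and 0.132 in alive fluid. BPI was listed at 0 in stillborn and alive fluid and at RPKM 0.0441 in spontaneous abortion. Together the 6 genes summed to RPKM 736 in stillborn, 606 in spontaneous abortion and 648 in alive fluid, which is 0.169%, 0.159% and 0.163% of the summed RPKM of the library. DEFB1 made up 93.6% of the 6-gene sum in stillborn, 93.2% in spontaneous abortion and 83% in alive fluid, and LTF made up 4.53%, 6.01% and 16.3%.

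**Figure D1:**
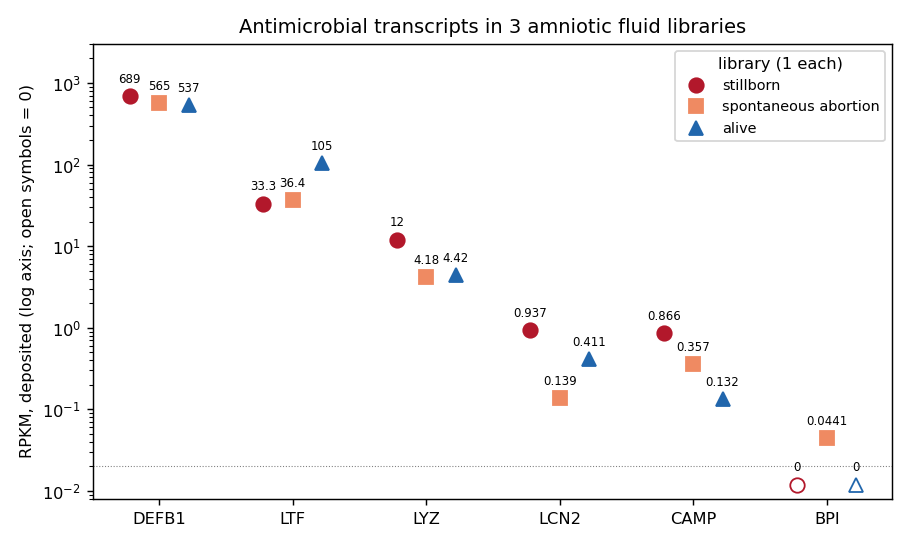
Deposited RPKM of the 6 genes (log axis) in 3 libraries (stillborn, spontaneous abortion, alive), 1 point per library. DEFB1 lies between 537 and 689 in all 3, LTF is highest in alive fluid at 105, LYZ is highest in stillborn fluid at 12, and the open symbols mark BPI at 0 in stillborn and alive fluid.

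Setting the stillborn against the alive library asks which of these transcripts part a stillbirth from a live outcome. LYZ was higher and LTF lower by the fold rule, beside 13% of 13398 genes tested that were higher and 12.5% that were lower. DEFB1 was the remaining member with enough reads to be counted, and it differed by less than 2-fold. In numbers, 1747 genes were higher and 1674 lower, or 1438 and 2144 when scaled on total assigned reads. In the spontaneous abortion library set against the alive one, LTF alone of the 6 passed the fold rule, as lower. There 7.67% of 13750 genes were higher and 5.71% lower. In stillborn against spontaneous abortion, LYZ alone of the 6 passed the fold rule, as higher, beside 7.53% of 13755 genes higher and 7.52% lower (1036 and 1035 genes, or 874 and 1314 on total assigned reads). Among the members with enough reads, none differed by 4-fold in any of the 3 comparisons. CAMP and LCN2 had ratios above 4 on fewer recovered reads, given below. Of all genes tested, 4.7% were that much higher and 3.25% lower in stillborn over alive. These shares were 2.3% and 1.51% in spontaneous abortion over alive, and 2.82% and 1.66% in stillborn over spontaneous abortion. LCN2, CAMP and BPI had fewer than 30 recovered reads in every library and were not counted in any comparison, so 3 of 6 members passed the minimum of reads. The first and second comparison share the alive library, so they are not independent of each other.

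**Figure D2:**
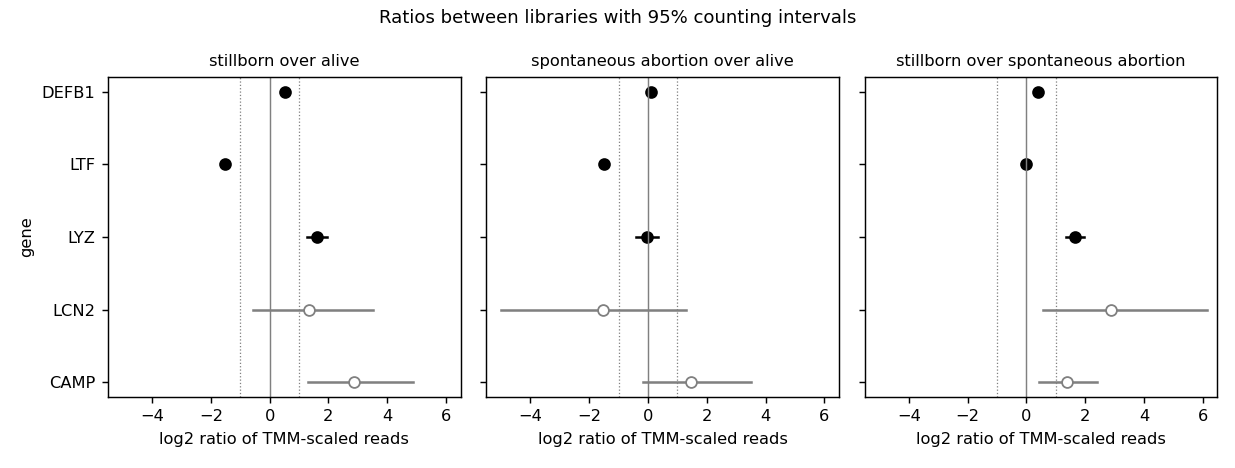
Log2 ratio of TMM-scaled reads for 5 of the 6 genes (BPI, with 1 recovered read, is left out) in 3 pairs of libraries, with lines for the 95% counting interval and dotted lines at 2-fold. Filled points met the minimum of 30 recovered reads. LTF lies left of the 2-fold line in the 2 comparisons with alive fluid, and LYZ lies right of it in the 2 comparisons that involve stillborn over another library.

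DEFB1, the constitutive epithelial defensin, was the steadiest of the 3 abundant members. Its highest deposited RPKM, without TMM scaling, was 1.28 times its lowest, against 3.16 times for LTF and 2.88 times for LYZ. With TMM scaling the largest difference between libraries was 1.43-fold for DEFB1, 2.83-fold for LTF and 3.13-fold for LYZ. DEFB1 held 14141 reads in stillborn, 19557 in spontaneous abortion and 12571 in alive fluid. By RPKM it ranked 94th of all genes in stillborn, 97th in spontaneous abortion and 115th in alive fluid. Its scaled ratio was 1.43 in stillborn over alive (1.4 to 1.47), and 25.3% of the genes tested had a larger ratio. In spontaneous abortion over alive the ratio was 1.08 (1.06 to 1.11), and in stillborn over spontaneous abortion 1.33 (1.30 to 1.35). These intervals exclude 1 by counting error, but every ratio was below the 2-fold limit. The spread between pregnancies with the same outcome is unknown.

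No other beta defensin approached DEFB1. Of 29 on the family list, 12 were measured and 4 were above 0 in any library. DEFB124 (listed as LOC103247933) was at RPKM 0.761 in stillborn, 0 in spontaneous abortion and 2.34 in alive fluid, which rest on at least 2, 0 and 7 reads. DEFB119 was at RPKM 0.315 in stillborn, 0.0267 in spontaneous abortion and 0.0395 in alive fluid. DEFB112 stayed at or below RPKM 0.0260 in all 3. The other 8 measured were listed at 0 in every library. Summed, the 11 others came to RPKM 1.08 in stillborn, 0.0527 in spontaneous abortion and 2.39 in alive fluid.

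Sums of 2 sets of epithelial markers are set beside DEFB1. The 10 simple epithelial markers, led by the keratins KRT19, KRT18 and KRT7, summed to RPKM 475 in stillborn, 624 in spontaneous abortion and 783 in alive fluid. KRT19 made up most of that sum, at RPKM 316 in stillborn, 434 in spontaneous abortion and 554 in alive fluid. The median RPKM of the 10 ran the other way, at 8.59 in stillborn, 6.26 in spontaneous abortion and 5.10 in alive fluid. The 12 squamous markers summed to RPKM 1186 in stillborn, 732 in spontaneous abortion and 423 in alive fluid, led by KRT6A, EMP1 and KRT5, and their median RPKM was 37.2, 22.0 and 11.4 in the same order. DEFB1 shared its order across the libraries with the squamous sum and with the median of either set, over a narrower range. The ratio of DEFB1 RPKM to the squamous sum was 0.581 in stillborn, 0.771 in spontaneous abortion and 1.27 in alive fluid. Against the simple epithelial sum it was 1.4 in stillborn, 0.905 in spontaneous abortion and 0.686 in alive fluid. The part of either marker set in the level of DEFB1 was not tested, and for all results here a smaller number of contributing cells and less RNA from each cannot be told apart. In stillborn over alive, 2 of the 10 simple epithelial markers were higher (EPCAM, an adhesion molecule, and CLDN7, a tight junction protein) and KRT8 was lower. Of the 12 squamous markers 9 were higher there and 1, KRT5, was lower. Of all genes tested in that comparison, 13% were higher and 12.5% lower. The cornified envelope protein SPRR3 was 57.7-fold higher (47.4 to 71.0) and CRNN, a protein of the upper squamous layers, 33.2-fold higher (27.9 to 39.7). The distal and proximal kidney tubule, where DEFB1 is also made in humans, was marked by 10 genes that summed to RPKM 1.14 in stillborn, 0.811 in spontaneous abortion and 0.639 in alive fluid. That sum also shared the order of DEFB1, and its part in the level of DEFB1 was not tested. DEFB1 RPKM was 603 times the tubule sum in stillborn, 697 times in spontaneous abortion and 840 times in alive fluid. CUBN, which takes up filtered proteins in the proximal tubule, made up most of the sum, at RPKM 0.932 in stillborn, 0.640 in spontaneous abortion and 0.329 in alive fluid, and passed the fold rule as higher in both losses. The water channel AQP2 and the salt transporter SLC12A3 passed it as lower in both losses. AQP2 was at RPKM 0.0361 in stillborn, 0.0107 in spontaneous abortion and 0.169 in alive fluid, and SLC12A3 at RPKM 0, 0.00468 and 0.0347.

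LTF, the iron-binding protein of milk, tears and neutrophil granules, was lower in both losses. It held 1531 reads in stillborn, 2823 in spontaneous abortion and 5518 in alive fluid. Relative to alive fluid it was 2.83-fold lower in stillborn (2.68 to 3.0) and 2.81-fold lower in spontaneous abortion (2.69 to 2.95). The alive library alone was high. In stillborn over spontaneous abortion the ratio was 0.994 (0.933 to 1.06), so those libraries did not differ beyond counting error, and a ratio under 0.933 or over 1.06 lies outside the interval. Of the genes tested, 5.77% had a smaller ratio than LTF in stillborn over alive and 2.68% in spontaneous abortion over alive. By RPKM, LTF ranked 1216th in stillborn, 1137th in spontaneous abortion and 442nd in alive fluid. Its relative TF, the iron carrier of plasma, was at RPKM 0.0445 in stillborn, 0.0330 in spontaneous abortion and 0 in alive fluid.

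No other neutrophil gene on the lists passed the fold rule as lower in both losses, as LTF did. The 16 other neutrophil granule genes, without the 4 members on the list, summed to RPKM 11.6 in stillborn, 1.56 in spontaneous abortion and 0.529 in alive fluid. ARG1, at RPKM 6.49, 0.864 and 0.0556 in the same order, and MMP9, at 3.43, 0.327 and 0.337, together made up most of it. Both are also made by other cells, so the sum does not stand for neutrophils alone. That sum was lowest in the library in which LTF was highest. LTF stood at 2.88 times this sum in stillborn, 23.3 times in spontaneous abortion and 199 times in alive fluid. The azurophil granule genes MPO, ELANE, PRTN3, AZU1 and CTSG, a peroxidase and 4 proteins of the serine protease family, were listed at 0 in all 3 libraries. MMP8, the neutrophil collagenase, was at RPKM 0.201 in stillborn, 0.0363 in spontaneous abortion and 0 in alive fluid. Of all 20 list genes, 4 had 30 reads in stillborn over alive, and of these ARG1, MMP9 and CRISP3 were higher and LTF lower. In stillborn over spontaneous abortion the same count was 3 higher and 0 lower, and in spontaneous abortion over alive ARG1 was higher and LTF lower. Of all genes tested, 13% were higher and 12.5% lower in stillborn over alive. These shares were 7.53% and 7.52% in stillborn over spontaneous abortion, and 7.67% and 5.71% in spontaneous abortion over alive. ARG1, an arginase that keratinocytes and liver also make, was 130-fold higher in stillborn than in alive fluid (35.7 to 1084), with 2 reads in alive fluid. MMP9, a gelatinase also made by macrophages, was 11.4-fold higher (6.77 to 20.4). CRISP3, a protein of specific granules and salivary glands, was 16.1-fold higher with its 0 reads in alive fluid taken as 3, and the lower limit of the interval on its 38 and 0 reads was 12.5-fold. The 10 measured neutrophil surface and cytosol genes, led by S100A9, S100A8 and MNDA, summed to RPKM 25.2 in stillborn, 3.69 in spontaneous abortion and 3.10 in alive fluid. Of 4 with enough reads in stillborn over alive, 4 were higher and 0 lower. In spontaneous abortion over alive S100A9 was higher and MNDA lower. MNDA was 3.05-fold higher in stillborn (2.47 to 3.80) and 5.21-fold lower in spontaneous abortion (3.54 to 7.86) than in alive fluid. TREM1, which amplifies inflammatory signals in myeloid cells, was 21.3-fold higher in stillborn than in alive fluid (10.5 to 50.4), with 134 reads in stillborn, 0 in spontaneous abortion and 8 in alive fluid. Of the same list, CXCR1 and S100A12 were at 0 in all 3. The part of neutrophils in the level of LTF was not tested.

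LYZ, the muramidase of secretions and phagocytes, was high in stillborn fluid only. It held 256 reads in stillborn, 150 in spontaneous abortion and 107 in alive fluid. Its ratio was 3.05 in stillborn over alive (2.42 to 3.85) and 3.13 in stillborn over spontaneous abortion (2.55 to 3.85). In spontaneous abortion over alive the ratio was 0.974 (0.755 to 1.26), a difference within counting error. Larger ratios than that of LYZ were found for 6.70% of genes tested in stillborn over alive and 3.80% in stillborn over spontaneous abortion. Of the other 7 measured lysozyme family genes, all stayed below RPKM 0.5. LYZL6, a lysozyme-like protein of the testis, was at RPKM 0.420 in stillborn, 0.107 in spontaneous abortion and 0 in alive fluid.

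Part of the monocyte and macrophage markers passed the fold rule in the same comparisons as LYZ. Without LYZ itself, the 11 measured markers summed to RPKM 28.5 in stillborn, 6.70 in spontaneous abortion and 9.67 in alive fluid. LYZ was 0.423 of this sum in stillborn, 0.624 in spontaneous abortion and 0.457 in alive fluid, a narrower range than that of LYZ. CD68, a lysosomal membrane protein of macrophages, was at RPKM 14.9 in stillborn, 5.46 in spontaneous abortion and 4.37 in alive fluid. It was 3.80-fold higher in stillborn than in alive fluid (2.86 to 5.10), near the ratio of LYZ, and it made up more of the sum than any other marker. TYROBP, a signalling adaptor of myeloid cells, was at RPKM 4.39 in stillborn, 0.280 in spontaneous abortion and 1.30 in alive fluid. C1QB, a chain of complement C1q, was 24.4-fold higher in stillborn than in spontaneous abortion (7.78 to 123). The mannose receptor MRC1 was 6.58-fold higher in stillborn than in alive fluid (4.19 to 10.8). In stillborn over alive the ratio was 1.03 for CD14 (0.674 to 1.57), 1.30 for CSF1R, the receptor of a macrophage growth factor (0.877 to 1.92), 1.06 for C1QC (0.410 to 2.68) and 0.583 for CD163 (0.258 to 1.24), and none of these passed the fold rule. Of the 12 measured markers including LYZ, 8 had enough reads in stillborn over alive, 8 in stillborn over spontaneous abortion and 5 in spontaneous abortion over alive. By the fold rule 6 were higher and 0 lower in the first, 7 and 0 in the second, and 0 and 2 in the third. Over all genes tested, the shares higher and lower were 13% and 12.5%, 7.53% and 7.52%, and 7.67% and 5.71%. The lower pair in spontaneous abortion were CD14, an endotoxin co-receptor, at RPKM 0.165 against 1.44 in alive fluid, and MS4A7 at RPKM 0.0306 against 0.499. MARCO, a scavenger receptor, was at 0 in all 3 libraries, and CD163, another, stayed at or below RPKM 0.0491. The 10 airway secretory markers summed to RPKM 20.1 in stillborn, 5.71 in spontaneous abortion and 7.68 in alive fluid. LYZ was 0.599 of this airway sum in stillborn, 0.733 in spontaneous abortion and 0.575 in alive fluid. That range, too, was narrower than that of LYZ, and narrower than that of the ratio to the macrophage sum. AGR2, a secretory pathway protein, led them at RPKM 10.9 in stillborn, 3.72 in spontaneous abortion and 2.76 in alive fluid. Of 8 with enough reads in stillborn over alive, 4 were higher (AGR2, the secretoglobins SCGB1A1 and SCGB3A2, and the mucin MUC5B) and SCGB3A1 was lower. In spontaneous abortion over alive 0 were higher and 4 lower of 7, among them the mucin MUC5AC, and in stillborn over spontaneous abortion 5 were higher and 0 lower of 6. The part of either marker set in the level of LYZ was not tested.

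**Figure D3:**
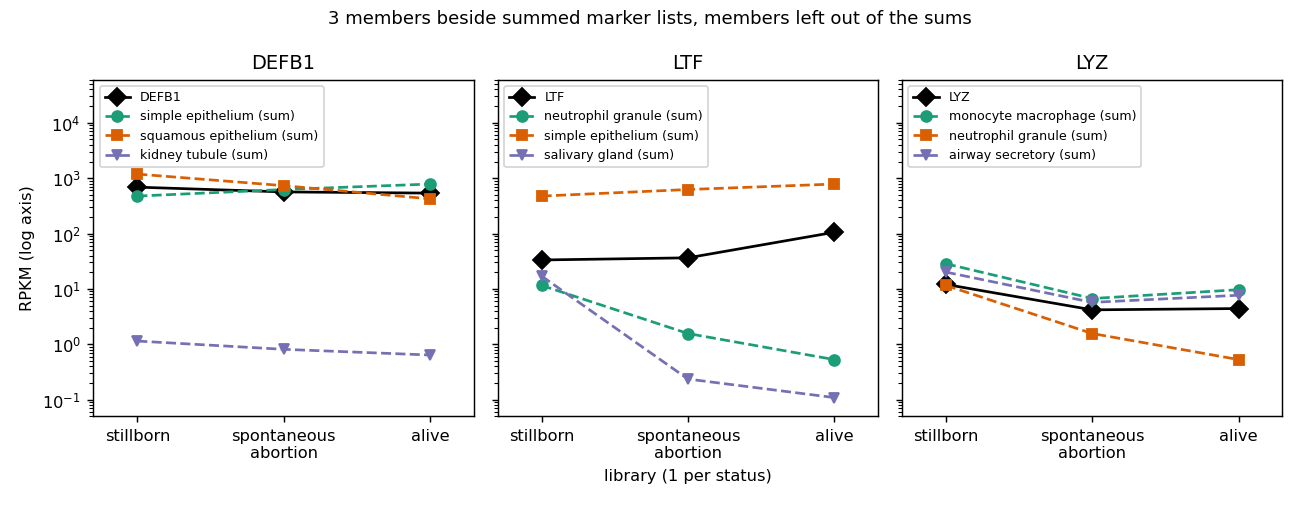
RPKM (log axis) of DEFB1, LTF and LYZ (black diamonds) in the 3 libraries, each beside 3 summed lists of marker genes from which members were left out; lines join values of the same quantity. The neutrophil granule sum is lowest in alive fluid at 0.529, where LTF is highest at 105, and the monocyte and macrophage sum is highest in stillborn fluid at 28.5, where LYZ is highest at 12. ARG1 and MMP9 together make up most of the neutrophil granule sum.

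LCN2, the siderophore trap of epithelia and neutrophils, had few recovered reads, at least 8 in stillborn, 2 in spontaneous abortion and 4 in alive fluid. The ratio in stillborn over alive was 2.55 (0.682 to 11.6), which does not exclude 1. In stillborn over spontaneous abortion it was 7.33 (1.46 to 70.9), and in spontaneous abortion over alive 0.347 (0.0314 to 2.42). The intervals are wide, but they rest on lower bounds of the reads, so the counting error may be smaller. From them, no order beyond the stillborn library lying above spontaneous abortion can be read. More reads came from other lipocalins. RBP4, the retinol carrier, was at RPKM 4.60 in stillborn, 8.06 in spontaneous abortion and 17.2 in alive fluid. It was 3.35-fold lower in stillborn (2.82 to 3.99) and 2.08-fold lower in spontaneous abortion (1.85 to 2.34) than in alive fluid. PAEP, the glycodelin of decidua and endometrium, was 29.3-fold lower in stillborn (14.0 to 73.6) and 18.8-fold lower in spontaneous abortion (11.9 to 31.3) than in alive fluid, at RPKM 0.127 and 0.216 against 4.17. These 2 were the lipocalins with 30 reads in a library, of 14 measured, and the others, LCN2 included, could not be counted.

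CAMP, the cathelicidin precursor, also had few recovered reads, at least 23 in stillborn, 16 in spontaneous abortion and 4 in alive fluid. The ratio was 7.32 in stillborn over alive (2.50 to 29.1) and 2.63 in stillborn over spontaneous abortion (1.33 to 5.34), and both intervals exclude 1. In spontaneous abortion over alive it was 2.78 (0.896 to 11.4), which does not. None of these met the minimum of 30 reads. CAMP had its lowest RPKM in alive fluid, where LTF, another specific granule protein, was highest. LTF RPKM was 38.4 times that of CAMP in stillborn, 102 times in spontaneous abortion and 797 times in alive fluid.

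BPI, the endotoxin-binding protein of azurophil granules, had 0 reads in stillborn, at least 1 in spontaneous abortion and 0 in alive fluid. A count of 0 allows up to 0.169 RPM (reads scaled to depth alone) in stillborn and 0.148 RPM in alive fluid, from 3 reads of each total, so a lower level was not detectable at this depth. Its fold cannot be given. Of the 13 measured genes of the BPI fold family, none reached RPKM 1 in any library. BPIFA1, an airway surface protein, was at RPKM 0.687 in stillborn, 0.151 in spontaneous abortion and 0.540 in alive fluid. It was 3.47-fold lower in spontaneous abortion than in alive fluid (2.37 to 5.18) and 4.93-fold higher in stillborn than in spontaneous abortion (3.39 to 7.32). BPIFA2, the parotid secretory protein, was at RPKM 0.757 in stillborn, 0.0173 in spontaneous abortion and 0.205 in alive fluid. LBP, the plasma protein that hands endotoxin to CD14, was listed at 0 in all 3.

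The genes nearest to each abundant member were sought among 2723 named genes whose mean RPKM was 10 or more, by distance between log2 ratios of stillborn and spontaneous abortion over alive, on the scale log2(RPKM + 0.1). With 3 libraries such likeness is a description only. Near DEFB1 lay FBXL7, SSU72 and DAD1 at distances of 0.01, 0.02 and 0.02, and 263 of 2722 genes (9.66%) lay within 0.25. Near LTF, 1 gene lay within 0.25. It was TMEM176A at a distance of 0.20, with RPKM 5.82 in stillborn, 7.09 in spontaneous abortion and 18.0 in alive fluid, followed by TPM1 at 0.34 and NDUFA3 at 0.41. Near LYZ lay CSTB, an inhibitor of cathepsins, at 0.08, B2M, the light chain of class I histocompatibility molecules, at 0.25 and FTH1, the ferritin heavy chain, at 0.26. CSTB was at RPKM 211 in stillborn, 71.2 in spontaneous abortion and 74.2 in alive fluid.

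**Figure D4:**
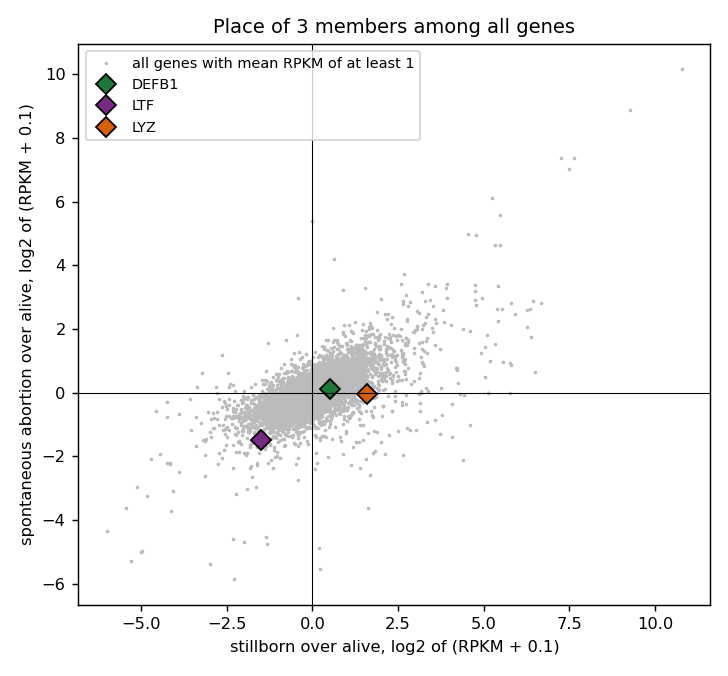
Each grey point is 1 gene of mean RPKM 1 or more, placed by its TMM-scaled difference in log2(RPKM + 0.1) in stillborn over alive (horizontal) and spontaneous abortion over alive (vertical); both axes share the alive library. DEFB1 lies near the centre at 0.52 and 0.11, LTF is low on both axes at -1.50 and -1.49, and LYZ is at 1.58 and -0.04.

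Other secreted antimicrobials gave a mixed picture. Of 33 on the list, 25 were measured. By the fold rule, 6 were higher and 3 lower in stillborn over alive of 14 with enough reads, in spontaneous abortion over alive 4 and 6 of 13, and in stillborn over spontaneous abortion 6 and 1 of 12. Over all genes tested, the shares higher and lower were 13% and 12.5%, 7.67% and 5.71%, and 7.53% and 7.52% in the same order. Over the 10 whose mean RPKM reached 1, the median difference in log2(RPKM + 0.1) was 1.03, -0.08 and 1.77 in those comparisons, beside -0.01, -0.01 and -0.02 over all 10229 such genes. Since a gene can reach that mean through 1 library alone, these medians are a description.

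WFDC2, a whey acidic protein of epithelia, was the most abundant and, like DEFB1, passed the fold rule in no comparison, at RPKM 1737 in stillborn, 2378 in spontaneous abortion and 2545 in alive fluid. DEFB1 reached 0.397 of the RPKM of WFDC2 in stillborn, 0.238 in spontaneous abortion and 0.211 in alive fluid. SLPI, the leukocyte protease inhibitor of mucosal secretions, was at RPKM 4.32 in stillborn, 2.51 in spontaneous abortion and 3.71 in alive fluid, far below DEFB1 and LTF. CHIT1, a chitinase of activated macrophages, was 71.9-fold higher in stillborn than in alive fluid (39.9 to 145), at RPKM 20.9 against 0.325. S100A8, a calgranulin of myeloid cells and keratinocytes, was 27.6-fold higher in stillborn fluid with its 0 reads in alive fluid taken as 3, and the lower limit of the interval on its 65 and 0 reads was 21.8-fold. RNASE6, an antimicrobial ribonuclease, was 26.1-fold higher in stillborn than in spontaneous abortion (13.3 to 58.3) and 7.84-fold lower in spontaneous abortion than in alive fluid (3.81 to 18.2). GNLY, the granulysin of cytotoxic lymphocytes, was on the low side in both losses, as LTF was, at RPKM 1.51 in stillborn and 0.256 in spontaneous abortion against 8.84 in alive fluid. RNASE4 passed the fold rule in no comparison, at RPKM 5.52 in stillborn, 8.04 in spontaneous abortion and 8.89 in alive fluid.

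**Figure D5:**
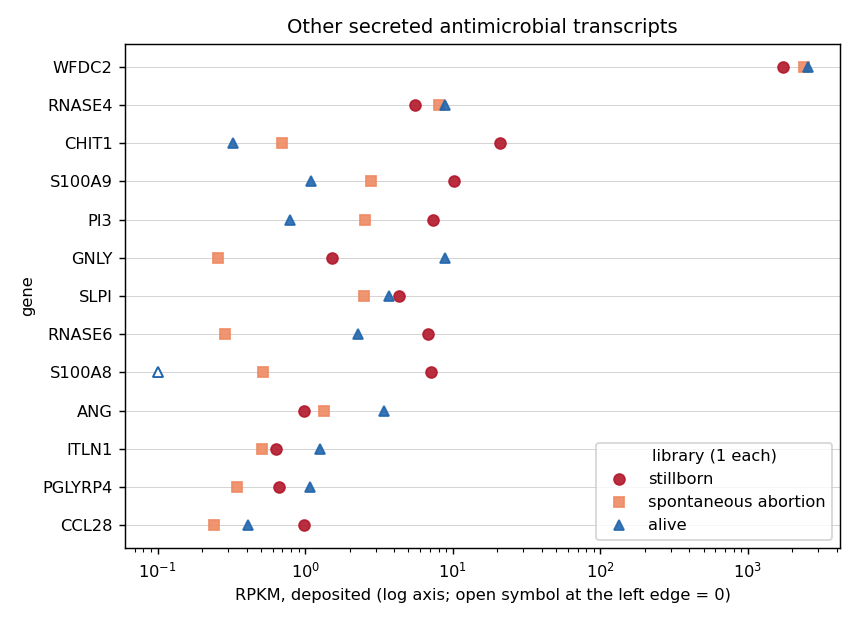
Deposited RPKM (log axis) of the 13 other secreted antimicrobial genes of mean RPKM 0.5 or more, ordered by that mean, 1 symbol per library. WFDC2 is the highest gene in all 3 libraries, CHIT1 is highest in stillborn fluid at 20.9, GNLY is highest in alive fluid at 8.84, and the open symbol marks S100A8 at 0 in alive fluid.

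Receptors and partners of the 6 proteins were unevenly found. LRP1, an endocytic receptor that takes up LTF, was at RPKM 1.60 in stillborn, 1.41 in spontaneous abortion and 1.66 in alive fluid. EGFR, which the cathelicidin peptide activates in human epithelial cells, was at RPKM 16.8 in stillborn, 15.2 in spontaneous abortion and 11.5 in alive fluid. Neither passed the fold rule in any comparison. TLR4, the endotoxin receptor, was 10.05-fold higher in stillborn than in alive fluid (8.02 to 12.7), with 679 reads against 86. SLC22A17, a receptor for LCN2, stayed at or below RPKM 0.156, and CCR6, a receptor for beta defensins, was at 0 in all 3 libraries. Of the 13 measured, 6 had enough reads in stillborn over alive, 5 in spontaneous abortion over alive and 6 in stillborn over spontaneous abortion. By the fold rule 2 were higher and 0 lower in the first, 0 and 2 in the second, and 3 and 0 in the third. Over all genes tested, the shares higher and lower were 13% and 12.5%, 7.67% and 5.71%, and 7.53% and 7.52%. The lower pair in spontaneous abortion were CD14 and ITLN1, an intestinal lectin proposed to bind LTF. CD14 also stands on the macrophage list and MMP9 on the neutrophil list.

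Of 21 measured regulators and processing enzymes, 11 had enough reads in stillborn over alive. Of these, 0 passed the fold rule in either direction, beside 13% of all genes tested higher and 12.5% lower. In each of the other comparisons 12 had enough reads, and 1 gene, IL22RA1, passed. Of all genes tested, 7.67% were higher in spontaneous abortion over alive and 7.52% lower in stillborn over spontaneous abortion. The 3 most abundant were the hypoxia factor HIF1A, at RPKM 24.8 in stillborn, 43.5 in spontaneous abortion and 37.1 in alive fluid, the acute phase factor CEBPD, at 9.62, 19.7 and 20.0, and the NF-kB subunit RELA, at 9.83, 12.1 and 13.4. IL22RA1, a subunit of the interleukin receptor that induces LCN2 and defensins in epithelia, was 2.23-fold higher in spontaneous abortion than in alive fluid (1.20 to 4.40) and 6.14-fold lower in stillborn than in spontaneous abortion (2.24 to 23.5), with 4 recovered reads in stillborn, 45 in spontaneous abortion and 14 in alive fluid. CEBPE, the factor that drives specific granule genes in neutrophil precursors, was listed at 0 in all 3 libraries, as were IL17A and IL22. VDR, the vitamin D receptor that induces CAMP in humans, was at RPKM 0.0872 in stillborn, 0.106 in spontaneous abortion and 0.105 in alive fluid. These low RPKM values rest on at least 59, 121 and 81 reads in the same order of libraries.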

How the data were processed

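Cell-free RNA of 3 amniotic fluid supernatants was turned into cDNA with the Ovation SPIA chemistry and sequenced on a HiSeq2500, per the labels' protocols. Per the submitters' processing notes, bcl2fastq 2.17, STAR and HTSeq were used. Not given in the sources used here are genome build, annotation, strand setting, other tool versions, the step that made the RPKM values and the gene lengths it used. RPKM as deposited by the authors was used for levels. Library totals were solved as the whole numbers that make each gene's values whole reads over a whole length, within the rounding of the printed digits. This held for 99.5% of the 23276 genes above 0, and their reads add up to 95.0% to 95.9% of the totals. TMM and median-of-ratios scaling were computed in Python code written for the purpose, from the recovered reads. The TMM factor was 0.937 in stillborn, 1.02 in spontaneous abortion and 1.05 in alive fluid. The intervals condition on the sum of both read numbers. The steps were tested on simulated data (Python 3.11.15, numpy 2.4.6, scipy 1.17.1, numba 0.67.0, matplotlib 3.10.9).

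Depth sets the precision: 3 reads, the limit that a count of 0 allows, are 0.169, 0.100 and 0.148 RPM in the stillborn, abortion and alive library. Each outcome has 1 library, so nothing was averaged or tested between outcomes. How reads of near-identical, overlapping or antisense genes were assigned cannot be seen. Gene names came from the files, and LOC names were matched by gene ID to the NCBI RefSeq table of mChlSab1.0.hap1, with 6491 of 17250 matched. No coordinates or sequences are printed. Members and lists were chosen with earlier results of these data known. Named beside the 6 members were the 3 most abundant genes of each list (mean RPKM of at least 1), up to 2 with the largest ratio per comparison among those that passed the fold rule, and the 3 nearest genes of each abundant member. Further list genes were named after their values were seen, such as those at 0, in small counts or with a role tied to a member. The alternatives were 2 other scalings, pseudocounts of 0.1 and 1, other minima of reads and folds, and thinning to the smallest total.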

Additional observations from a re-analysis of the deposited data

How the results depend on the processing

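The members that passed the fold rule (LTF and LYZ) were the same under TMM, total assigned reads and median-of-ratios scaling in all 3 comparisons. On total assigned reads, log2 ratios of DEFB1 were 0.36 for stillborn over alive, 0.072 for spontaneous abortion over alive and 0.29 for stillborn over spontaneous abortion, and those of LTF were -1.66 for the first and -0.13 for the last. That scaling moves the median log2 difference of all genes to -0.17 for stillborn over alive and -0.14 for stillborn over spontaneous abortion, and scaled values are relative to it. With log2(RPKM + 1), CAMP in stillborn over alive came to 0.77, since that pseudocount shrinks low levels. Counts of higher and lower genes depended on the limits. At 4-fold they were 630 and 435 in stillborn over alive, 316 and 207 in spontaneous abortion over alive, and 388 and 229 in stillborn over spontaneous abortion. At 100 reads they were 1029 and 1107, 538 and 358, and 506 and 567. With no minimum of reads, 2846 were higher in stillborn over alive, 1653 higher and 1477 lower in spontaneous abortion over alive, and 1958 higher in stillborn over spontaneous abortion. No other alternative moved a ratio of a member out of its counting interval or a count by over 1.5 times. LCN2, CAMP and BPI had fewer than 30 recovered reads in every library. As recovered reads are lower bounds, whether depth limits these genes was not settled. No paired analysis was possible because each outcome has 1 library and the labels carry no replicate numbers.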

Other observations

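Of 6 measured salivary markers, PIP, ZG16B, LPO and PRR4 were at 0 in all 3 libraries and AQP5 stayed at or below RPKM 0.0145. MUC7, a salivary mucin, was at RPKM 17.0 in stillborn, 0.221 in spontaneous abortion and 0.109 in alive fluid, and it was the only one of the 6 above RPKM 1 in any library. PI3 (elafin), a protease inhibitor of inflamed and squamous epithelia, was 10.3-fold higher in stillborn (6.18 to 18.1) and 3.31-fold higher in spontaneous abortion (1.94 to 5.96) than in alive fluid. The club cell secretoglobin SCGB1A1 was at RPKM 3.84 in stillborn, 0.672 in spontaneous abortion and 0.952 in alive fluid, whereas SCGB3A1 was at 0.502, 0.298 and 1.83 in the same order of libraries.

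The angiogenin gene ANG, an antimicrobial ribonuclease, had the pattern of LTF. It was 3.10-fold lower in stillborn (2.11 to 4.66) and 2.47-fold lower in spontaneous abortion (1.86 to 3.31) than in alive fluid, at RPKM 0.984 and 1.34 against 3.40. No cause was tested for any of these values, and each rests on 1 library per outcome.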
